A study of Mus musculus with 34 samples.

Results

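The interferon regulatory factors (IRFs) are transcription factors that share a DNA-binding domain and control the genes of the interferon response. The 8 genes described here, Irf1, Irf2, Irf3, Irf4, Irf5, Irf7, Irf8 and Irf9, were chosen by name from the tables of gene counts, which held 28432 genes at 96 h, 30351 at 10 d and 29745 in the tumors. All 8 were present in each table. The filter on low counts kept 5 of the 8 at 96 h (Irf4, Irf5 and Irf8 were not tested), 7 at 10 d (Irf4 was not tested) and 8 in the tumors.

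RNA was sequenced from small cell lung cancer (SCLC) of the mouse, which has neuroendocrine features, after treatment with the LSD1 inhibitor bomedemstat (BOM); LSD1 removes methyl groups from histones. Cells of 3 SCLC lines (G8545, RP-116 and RP-48) received BOM or its solvent control DMSO for 96 h, with 1 library per line and treatment. Another line, RP-48OVA-LLO190, was kept for 10 d in DMSO (3 libraries) or BOM (2 libraries), and for the last 48 h interferon gamma (IFNg) was added to further DMSO (3) and BOM (2) cultures. Tumors of this line, grown in the flanks of immunocompetent mice, were collected after 16 d of treatment: 5 with vehicle, 4 with BOM, 5 with an antibody that blocks PD-1 (anti-PD1), a checkpoint receptor of T cells, and 4 with BOM and the antibody together. The series text gives 16 to 17 d for the tumors. All 10 d cultures and all tumors therefore came from 1 cell line, and the labels do not say whether replicates of a culture were separate cultures, so p-values at 10 d measure the spread between libraries, which may be technical. The mouse strain, age and sex are not given in the sources used here.

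Library totals ran from 8712025 to 9968681 counts at 96 h, from 5896627 to 9044398 at 10 d and from 5638353 to 82205546 in the tumors, where vehicle tumor 1 was the deepest and the next held 13.2 M. Markers of neuroendocrine SCLC summed to between 2635 and 3819 CPM (counts scaled by the library total) in every library. Vehicle tumors 1 and 2 also held skeletal muscle transcripts, with summed CPM of 123 and 48.2 against 6.56 to 7.97 in the other vehicle tumors, as did BOM tumor 2 (1052) and BOM plus anti-PD1 tumors 3 and 4 (156 and 84.8). Results against vehicle are given without vehicle tumors 1 and 2 where the call changed. BOM tumor 2 and BOM plus anti-PD1 tumors 3 and 4 were kept in those fits, so the choice was one-sided. A change was called at a Benjamini-Hochberg adjusted p under 0.05 over all genes in edgeR's quasi-likelihood test. The sum of the 9 neuroendocrine markers hides changes of single genes. For BOM against vehicle tumors 2 of the 9 were called higher and 6 lower, beside 845 and 1237 of all 14332 genes. For BOM plus anti-PD1 against anti-PD1 0 were called higher and 4 lower, beside 2263 and 2374 of all genes. Fold changes below are fitted log2 values with their standard errors (SE), and levels are in CPM.

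IRF proteins act at several points of 1 pathway. IRF3 and IRF7 are activated by kinases below the sensors of foreign nucleic acids and switch on interferon genes, and IRF5 acts below Toll-like receptors, mostly in myeloid cells. IRF9 is the DNA-binding subunit of the complex ISGF3, which drives genes with an interferon-stimulated response element (ISRE). IRF1 is itself induced by IFNg through a gamma-activated site (GAS) and activates antigen-presentation genes, while IRF2 binds many of the same elements and can oppose it. IRF4 and IRF8 act in lymphoid and myeloid cells, often with the partner PU.1.

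The promoters of the 3 members that responded to IFNg and hold a GAS-like sequence are shown first, because the results turn on which members IFNg raised. All 8 members matched the RefSeq promoter table (assembly GRCm38.p6), whose windows run from 250 bases before to 50 bases after each annotated start. The windows were searched on both strands for GAS (TTCNNNGAA) and ISRE (GAAANNGAA). The first stretch is 200 bases upstream of Irf1 on chr11:53769764-53769963, the second is 200 bases upstream of Irf8 on chr8:120736108-120736307 and the last is 60 bases upstream of Irf2 on chr8:46739495-46739554, all on the plus strand and written 5′ to 3′. Capitals mark the matches.
Irf1: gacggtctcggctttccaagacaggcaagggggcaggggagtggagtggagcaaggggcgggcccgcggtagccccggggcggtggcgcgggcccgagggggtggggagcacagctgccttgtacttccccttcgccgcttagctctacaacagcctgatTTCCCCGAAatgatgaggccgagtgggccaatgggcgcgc
Irf8: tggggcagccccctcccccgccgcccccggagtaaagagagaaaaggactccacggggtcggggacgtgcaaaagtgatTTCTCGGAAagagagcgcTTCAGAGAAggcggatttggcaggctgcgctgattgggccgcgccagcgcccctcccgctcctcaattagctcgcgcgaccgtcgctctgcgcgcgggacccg
Irf2: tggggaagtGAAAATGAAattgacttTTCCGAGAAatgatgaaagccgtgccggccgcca

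Relative to the annotated start, Irf1 held 1 GAS match, at -90 to -82, and Irf8 held 2, at -171 to -163 and at -153 to -145. Irf2 held an ISRE match at -241 to -233 and a GAS match at -224 to -216. The windows of Irf3, Irf4, Irf5, Irf7 and Irf9 held neither pattern, which says only that these letters are not in those windows. The Irf9 windows began at 55603735 and 55604329, inside the annotated gene, which starts at 55603571. The sequence upstream of that gene start was therefore not searched. Irf1 and Irf8 each had a further window, at another annotated start, that held neither pattern. Of all 32851 promoter windows, 8.3% held the GAS pattern and 8.56% held the ISRE pattern. A match is a description of the sequence and does not show that a factor binds there.

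At rest, the SCLC cells expressed a few members well and others barely. Per kilobase of gene length, in DMSO cells at 10 d, the order was Irf3 (10.3 ± 0.355 CPM per kb, SD, n = 3), Irf2 (7.02 ± 0.159), Irf1 (3.86 ± 0.434), Irf9 (3.27 ± 0.223), Irf7 (1.15 ± 0.461), Irf5 (0.639 ± 0.169), Irf4 (0.218 ± 0.111) and Irf8 (0.0080 ± 0.0139). The ranges of Irf1 and Irf9 overlapped, as did those of Irf7 and Irf5, and the other neighbors were separate. The 3 lines at 96 h had Irf3 and Irf2 in the same first positions in DMSO, at 9.30 ± 0.833 and 5.64 ± 0.644 CPM per kb (SD, n = 3). The annotated exons of Irf7 fill its whole gene, so that reads from unspliced RNA could add to its count.

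At 96 h, none of the 5 tested members was called for BOM in the 3 lines. edgeR called 0 of 13333 genes (0% called), with 812 at an unadjusted p under 0.05 and 0 members among them. DESeq2 called 59 genes, limma voom 3 and edgeR with no filter 310. Without the BOM or the DMSO library of G8545 edgeR called 186 and 184 genes. No member was called in any of these fits. Irf1, the IFNg-induced activator, stood at 7.12 CPM in RP-116, 18.3 in RP-48 and 12.7 in G8545 with DMSO, and at 9.06, 19.5 and 17.3 with BOM. It was higher with BOM in 3 of 3 lines, with a fitted log2 difference of 0.28 ± 0.20 (SE, adjusted p = 0.922), and the lines differed more from each other than the treatments did. Irf7 was at 0.803 to 1.51 CPM in DMSO and 1.01 to 2.11 in BOM. Irf4, a lymphocyte factor, was at 2.31 and 2.22 CPM in G8545 and at 0 to 0.863 CPM in the other 2 lines. Irf5 and Irf8 did not exceed 0.504 CPM in any library.

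**Figure D1:**
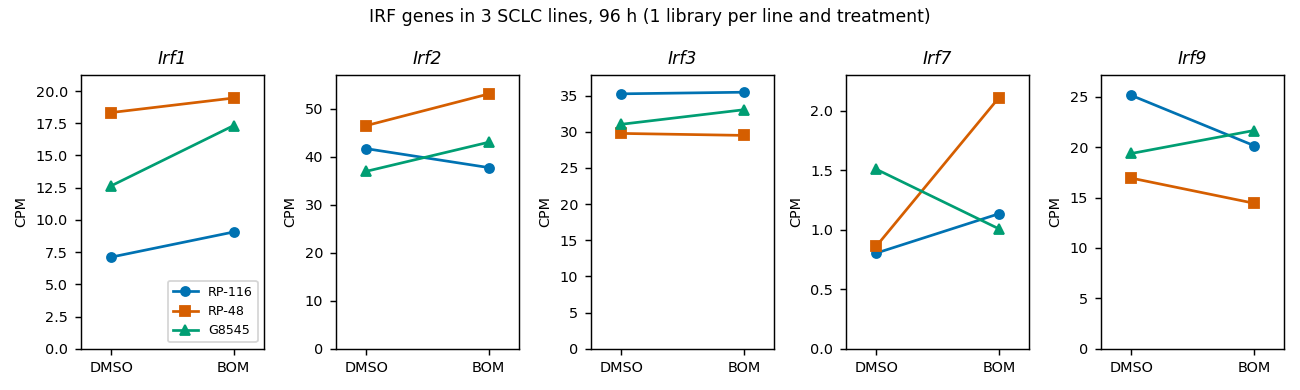
CPM (vertical axis, linear from 0) of the 5 tested members in DMSO and BOM at 96 h; each line joins the libraries of 1 cell line. Irf1 was higher with BOM in each line by less than the spread between lines, and Irf2, Irf7 and Irf9 moved in both directions.

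After 10 d, BOM raised 1 of the 7 tested members, Irf1, when IFNg was absent; of all genes 12.1% were called higher. Irf1 was at 15.9, 16.7 and 13.4 CPM in the DMSO cultures and at 27.7 and 28.8 CPM in the BOM cultures. Both BOM cultures lay above all DMSO cultures, and the fitted rise was 0.81 ± 0.19 (SE; 1.76-fold, adjusted p = 0.00534). Without BOM culture 2 the rise was 0.77 and missed the threshold (adjusted p = 0.0521). Irf2, Irf3, Irf5, Irf7 and Irf9 lay between -0.31 and 0.34 on the log2 scale and were not called. Irf8 had 1 count over the 3 DMSO libraries and 1 over the 2 BOM libraries, so that no fold was taken. The median over the 7 tested members was 0.20, beside -0.01 over all genes.

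Other genes of the pathway in the same BOM comparison were described by lists of known members. Of all 15230 genes 12.1% were called higher and 1257 genes lower. Of 9 listed IRF1 targets 7 were measured, and 3 rose and 0 fell, with a median of 0.90 beside -0.01 over all genes. They were Tap1, the peptide transporter of MHC class I (1.34 ± 0.35), B2m, its light chain (0.53 ± 0.15), and Ciita, the master activator of MHC class II (0.44 ± 0.15). Of 15 sensors, adaptors and kinases 14 were measured, and 6 rose and 1 fell; the 3 with the lowest p were Ifih1, the sensor MDA5 (1.30 ± 0.17), Tlr3, a sensor of double-stranded RNA (2.35 ± 0.40), and Mavs, the mitochondrial adaptor of MDA5 and RIG-I (0.94 ± 0.14). Of 9 receptors, JAKs and STATs 2 rose, Jak1 (0.72 ± 0.11) and Ifngr2 (0.82 ± 0.21). The median of that list was 0.06, close to the -0.01 of all genes. Of 14 ISGF3 targets 4 rose and 0 fell.

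IFNg raised 5 of the 7 tested members in DMSO cells, against 1.95% of all genes called higher. They were Irf1, Irf2, Irf7, Irf8 and Irf9, and none of the 7 fell. Irf8, with 1 count over the DMSO libraries, passed the filter only through the groups with IFNg. Its call as higher therefore followed from the filter and adds no support to the count of 5. The median over the 7 was 1.09, beside -0.01 over all genes.

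Irf1 rose from 13.4 to 16.7 CPM in DMSO to 250, 387 and 332 CPM with IFNg. The groups were far apart, with a fitted rise of 4.39 ± 0.16 (SE; 21.0-fold, adjusted p = 1.06e-12). Irf8 had 0, 0 and 0.170 CPM in DMSO and 81.0, 68.5 and 75.2 CPM with IFNg. That is 1 count against 1447, a ratio of 1438 with a 95% interval of 258 to 56855 that covers counting error only. Irf8 is best known from myeloid and B cells, and markers of those lineages had counts in the cultures as well. Over the 10 libraries 8 of 11 macrophage and monocyte markers (all but Adgre1, C1qa and C1qc), 5 of 8 dendritic markers (all but Ccr7, Cd209a and Itgax) and 7 of 7 B and plasma cell markers had counts. The macrophage and monocyte sum was 6.70 to 13.9 CPM in DMSO and 7.32 to 15.6 CPM with IFNg, the leukocyte sum (6 markers) 14.2 to 15.9 and 13.8 to 17.7 CPM, and the dendritic sum 57.3 to 68.4 and 50.4 to 65.6 CPM, all overlapping. The B and plasma cell sum was 109 to 120 CPM in DMSO and 101 to 109 CPM with IFNg. In the tumors, sequenced from polyadenylated rather than total RNA, that sum was 3.30 to 52.7 CPM. A marker had counts if any library held a read, and few passed the filter at 10 d. These were 3 of 11 macrophage and monocyte, 2 of 8 dendritic, 2 of 7 B and plasma cell and 1 of 6 leukocyte markers. The part of such cells in the Irf8 counts was not tested.

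Irf9, the DNA-binding part of ISGF3, was at 16.8, 19.0 and 17.1 CPM in DMSO and 80.1, 87.5 and 74.9 CPM with IFNg. It rose by 2.20 ± 0.11 (adjusted p = 1.39e-10), with no overlap. Irf9 shares 123 exonic bases with Rnf31, a ubiquitin ligase gene on the same strand, which rose by 1.01 ± 0.11 (adjusted p = 1.14e-05). Irf2, the partial antagonist of IRF1, was at 53.0, 52.1 and 50.7 CPM in DMSO and 86.7, 74.9 and 76.2 CPM with IFNg. Its rise was small and steady, 0.61 ± 0.09 (adjusted p = 0.000479).

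Irf7, the amplifier of type I interferon, was at 2.93, 3.77 and 6.27 CPM in DMSO and 8.82, 10.1 and 8.37 CPM with IFNg. The groups did not overlap, and the rise of 1.09 ± 0.27 was close to the threshold (adjusted p = 0.0435). It kept its call in 3 of 10 fits that left out a library, with adjusted p from 0.00729 to 0.207, and had an adjusted p of 0.0760 when only the 2 groups compared were fitted. Irf3, whose protein is activated by kinases below the sensors, was at 34.2 to 36.6 CPM in DMSO and 35.2 to 42.9 CPM with IFNg (0.11 ± 0.11). Irf5 was at 1.40 to 2.37 CPM and 1.58 to 2.39 CPM, and neither gene was called.

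After IFNg the order per kilobase was led by Irf1 (81.3 ± 17.3 CPM per kb, SD, n = 3) and Irf9 (15.0 ± 1.18), above Irf3 (11.2 ± 1.17), Irf2 (10.7 ± 0.876) and Irf8 (10.6 ± 0.888), whose ranges overlapped from each to the next. Irf7 (2.41 ± 0.231), Irf5 (0.731 ± 0.162) and Irf4 (0.181 ± 0.0714) followed, each separate from its neighbor. With IFNg in DMSO cells 1.95% of all genes were called higher. All 7 measured IRF1 targets rose, with a median of 7.81, and 11 of 14 ISGF3 targets rose, with a median of 3.55, beside -0.01 over all genes. Among them were Tap1 (9.07 ± 0.15), Psmb8 and Psmb9, subunits of the immunoproteasome (9.71 ± 0.27 and 9.17 ± 0.26), and Oasl2, an antiviral gene (7.59 ± 0.34). Stat2, a subunit of ISGF3, rose by 1.97 ± 0.10. Ciita rose by 3.49 ± 0.12. At 96 h, without IFNg, 3 of 9 listed IRF1 targets and 3 of 14 ISGF3 targets passed the filter. Some targets may thus have passed it at 10 d only through the groups with IFNg.

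**Figure D2:**
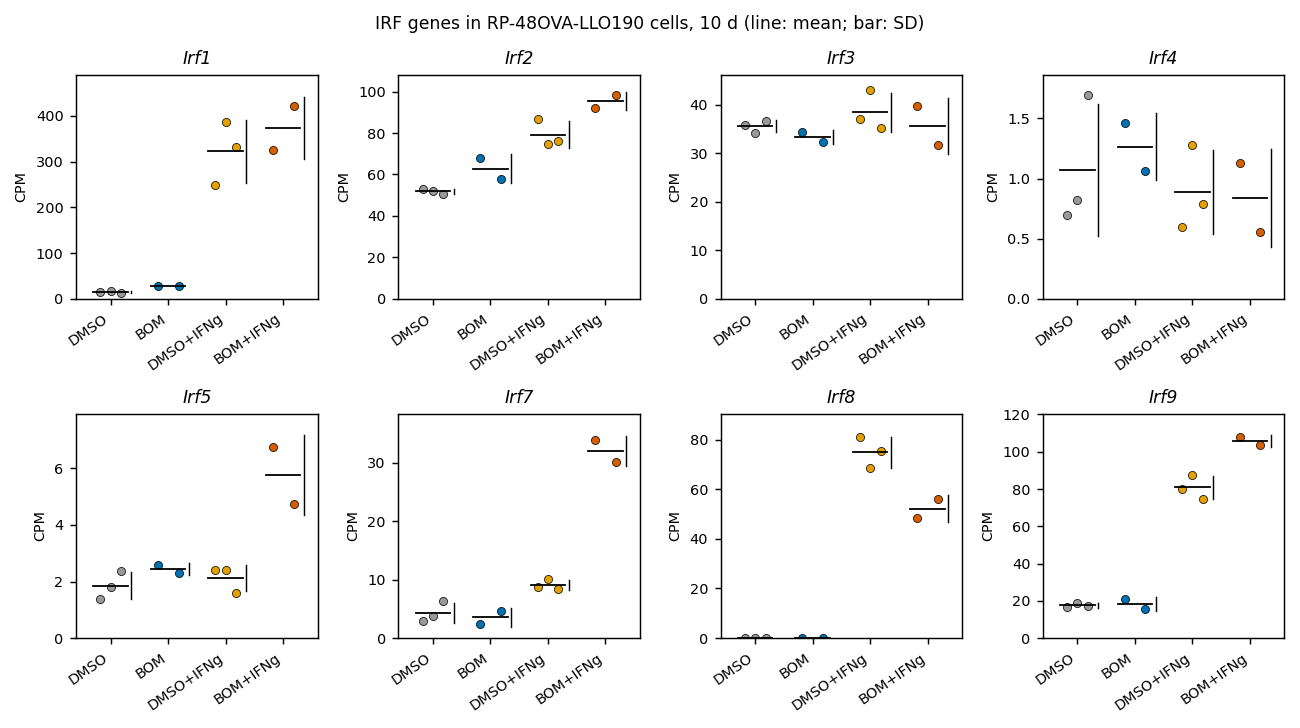
CPM (vertical axes, linear from 0, 1 scale per gene) of the 8 members in RP-48OVA-LLO190 cells at 10 d; points are libraries, the horizontal line is the mean and the vertical bar the SD. Irf8 went from 0 to 0.170 CPM without IFNg to 48.3 to 81.0 CPM with it, and Irf7 stood at 33.8 and 30.2 CPM in BOM with IFNg and at or under 10.1 CPM in the other groups.

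Among cells that had received IFNg, BOM shifted 4 of the 7 tested members: Irf5, Irf7 and Irf9 rose and Irf8 fell. Of all genes 13% were called higher and 10.1% lower in this comparison, and the median over the 7 members was 0.20, beside -0.01 over all genes. Irf7 was at 33.8 and 30.2 CPM in BOM with IFNg, 3.36-fold above the 8.37 to 10.1 CPM of DMSO with IFNg (1.75 ± 0.24, adjusted p = 4.04e-05). It stayed called when any library was left out, with log2 values from 1.69 to 1.82. Phrf1, which shares 45 exonic bases with Irf7 on the other strand, differed by -0.14 ± 0.09 (adjusted p = 0.255).

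Irf5 was at 6.77 and 4.75 CPM in BOM with IFNg and 2.39, 2.39 and 1.58 CPM in DMSO with IFNg, again without overlap (1.35 ± 0.37, adjusted p = 0.0126). Without culture 1 of BOM with IFNg its adjusted p was 0.128, and without culture 3 of DMSO with IFNg it was 0.0543. Irf5 shares 411 exonic bases with Tnpo3 on the other strand, and the libraries do not record the strand; Tnpo3 differed by -0.14 ± 0.09 (adjusted p = 0.285). Irf9 was at 108 and 104 CPM in BOM with IFNg, above all of the DMSO cultures with IFNg, by a small amount (0.32 ± 0.11, adjusted p = 0.0347). The call was lost in DESeq2 (adjusted p = 0.0538), with no filter (0.0582), in the fit blocked on replicate number (0.0598) and in 4 of 10 fits that left out a library.

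Irf8 moved the other way. It was at 48.3 and 55.9 CPM in BOM with IFNg, below all 3 DMSO cultures with IFNg (-0.58 ± 0.14, adjusted p = 0.00648), although it remained far above its level in cells without IFNg. Without culture 1 of BOM with IFNg the difference was -0.47 (adjusted p = 0.0809). Irf1, at 326 and 422 CPM with BOM, overlapped the 250 to 387 CPM of DMSO with IFNg (0.15 ± 0.14, adjusted p = 0.486). Irf2 was at 92.3 and 98.4 CPM, above the DMSO cultures with IFNg, and was not called (0.20 ± 0.10, adjusted p = 0.165). Irf3 was at 39.8 and 31.6 CPM (-0.18 ± 0.13, adjusted p = 0.358).

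In the same comparison 13% of all genes were called higher and 10.1% lower. Of 14 ISGF3 targets 14 rose, with a median of 1.63. Of 7 measured IRF1 targets 4 rose, with a median of 0.30. Ifit1, an antiviral RNA-binding protein (2.90 ± 0.42), Oasl2 (1.54 ± 0.15), Bst2, the antiviral protein tetherin (1.84 ± 0.18), and Usp18, a brake on interferon receptor signaling (1.61 ± 0.24), were among the former. Gbp2, an interferon-induced GTPase (1.40 ± 0.13), Cd274, which encodes the PD-1 ligand PD-L1 (1.10 ± 0.16), B2m (0.59 ± 0.12) and Ciita (0.30 ± 0.10) made up the latter. Tap1 had a difference of 0.22 ± 0.08 (adjusted p = 0.0750) and was not called. Of 9 receptors, JAKs and STATs 5 rose, among them Stat2 (0.69 ± 0.10) and Jak1 (0.67 ± 0.11), a kinase of the interferon receptors. Of 14 measured sensors, adaptors and kinases 7 rose and 1 fell, and Ddx58, the sensor RIG-I, rose by 2.49 ± 0.23. A gene high only in the BOM cultures with IFNg could pass the filter. Some ISGF3 targets may have passed that way, so the 14 of 14 is not independent support.

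Within BOM cells IFNg raised Irf1, Irf2, Irf7, Irf8 and Irf9, 5 of 7 tested, while 1.73% of all genes were called higher. Irf7 rose from 2.43 and 4.72 CPM to 33.8 and 30.2 CPM (3.14 ± 0.31, adjusted p = 2.34e-06), and Irf9 rose by 2.54 ± 0.13. Irf1 rose by 3.73 ± 0.18 and Irf2 by 0.61 ± 0.11 (adjusted p = 0.00356 for Irf2, lost without BOM culture 2, at 0.142, and without culture 2 of BOM with IFNg, at 0.0821). Irf8 had 806 counts against 1, a ratio of 672 (95% interval 120 to 26595, counting error only). As in DMSO cells, its call followed from a filter that it passed only through the groups with IFNg. Irf5 had a difference of 1.22 ± 0.41 and was not called (adjusted p = 0.194).

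The 10 d comparisons share libraries, so whether the response to IFNg differed between BOM and DMSO was tested by an interaction. edgeR called none of the 7 members and 0 of 15230 genes (0% called), with 725 genes and 2 members, Irf7 and Irf1, at an unadjusted p under 0.05. For Irf7 the interaction was 2.06 ± 0.42 (adjusted p = 0.230), a 4.16-fold larger response with BOM, and for Irf1 it was -0.66 ± 0.24 (adjusted p = 0.849). The result for Irf7 depended on the setting: DESeq2 gave an adjusted p of 0.0106 (13 genes called in all), the fit with no filter 0.000136 (67 genes) and the fit with the replicate number as a block 0.0376 (10 genes), while limma voom called 0 genes. Its size was 2.04 to 2.07 in those 3 fits. Irf1 was called only with no filter (adjusted p = 0.0230).

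**Figure D3:**
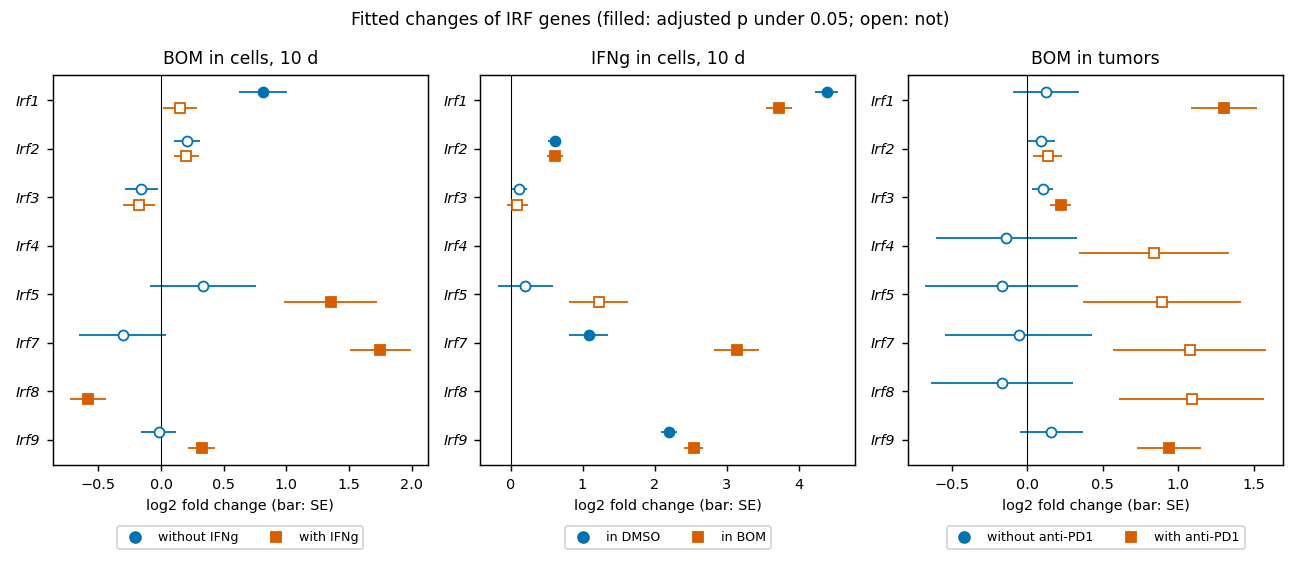
Fitted log2 fold changes (horizontal axis) with SE bars for each member, filled where the adjusted p was under 0.05; circles are without IFNg, in DMSO or without anti-PD1 (left to right), and squares are with IFNg, in BOM or with anti-PD1. Members that were not tested, and Irf8 where a group had 1 count, are not drawn. With IFNg, BOM raised Irf5, Irf7 and Irf9 and lowered Irf8; in tumors, Irf1, Irf3 and Irf9 were called for BOM beside anti-PD1 and none without it.

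In tumors all 8 members passed the filter, and the order per kilobase differed from that of resting cells. The resting cells of the tumor line were sequenced from total RNA and the tumors from polyadenylated RNA. Irf3 and Irf2 also came first in DMSO cells of the other lines, which were sequenced from polyadenylated RNA. The part of the RNA type in the difference between tumors and cells was not tested. In vehicle tumors Irf1 (18.1 ± 6.10 CPM per kb, SD, n = 5) and Irf3 (14.7 ± 0.870) led with overlapping ranges, followed by Irf2 (7.42 ± 0.856), Irf9 (4.31 ± 1.18), Irf7 (3.30 ± 1.18), Irf5 (3.29 ± 2.91), Irf8 (2.14 ± 1.26) and Irf4 (0.244 ± 0.0608). Irf9, Irf7, Irf5 and Irf8 overlapped from each to the next. Tumor tissue is a mixture, and in bulk RNA fewer cells of a type and less RNA per cell cannot be told apart. Vehicle tumors held 110 to 469 CPM of the 6 leukocyte markers and 531 to 1558 CPM of the 11 macrophage and monocyte markers, all of which had counts.

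None of the 8 members was called for BOM alone against vehicle, while 14.5% of all genes were called. That was 2082 genes, with 1210 to 1367 when vehicle tumor 3, 4 or 5 was left out, 1267 and 1253 without BOM tumor 1 or 4, and 3363 without vehicle tumors 1 and 2. edgeR put 0 members at an unadjusted p under 0.05, and DESeq2 and limma voom called 0 members too. Irf1 was at 98.3, 98.2, 54.6, 60.4 and 48.8 CPM in vehicle tumors and 64.9, 78.1, 109 and 69.9 CPM in BOM tumors (0.13 ± 0.22, adjusted p = 0.764). The 2 highest vehicle values are vehicle tumors 1 and 2, which set the overlap. Without these 2 tumors Irf1 was higher in BOM tumors by 0.55 ± 0.19 (adjusted p = 0.0459), and all 4 BOM tumors lay above the 3 that remained. That separation depends on leaving out the 2 highest vehicle values. BOM tumor 2, with 1052 CPM of muscle markers, was kept. The other 7 members lay between -0.17 and 0.16. Their SEs were 0.47 for Irf4, 0.51 for Irf5, 0.49 for Irf7 and 0.47 for Irf8, and 0.07 to 0.21 for the others. For Irf4, Irf5, Irf7 and Irf8 the fit does not show that the level stayed unchanged.

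For anti-PD1 alone against vehicle none of the 8 members was called. Over all genes edgeR called 0 of 14332 (0% called), with 1411 genes and 2 members at an unadjusted p under 0.05. DESeq2 and limma voom called 0 members as well. All 8 fitted values were negative, with a median of -0.48 beside -0.0039 over all genes. Irf1 was at 70.8, 39.9, 47.5, 48.7 and 52.2 CPM (-0.47 ± 0.21, adjusted p = 0.475). Some marker sums had lower medians too, at 131.8 against 149 CPM for leukocytes and 353 against 579 CPM for macrophages and monocytes. T cell markers (8.16 against 12.7 CPM) and dendritic markers (44.7 against 65.1 CPM) were also lower. The B and plasma cell sum was higher, at 13.9 against 8.87 CPM. All these ranges overlapped, and the part of such cells in the values was not tested.

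With both agents, 1 of 8 members was higher than in vehicle, while 4.94% of all genes were called higher. That share is unstable: 708 genes were called higher, but 199 to 218 without vehicle tumor 3, 4 or 5, 364 and 445 without BOM plus anti-PD1 tumor 1 or 2, 1418 without vehicle tumor 1, 1781 without vehicle tumors 1 and 2, and 3 with only the 2 groups fitted. Irf1 was at 157, 102, 121 and 142 CPM in the BOM plus anti-PD1 tumors, above all 5 vehicle tumors, and rose by 0.83 ± 0.22 (1.78-fold, adjusted p = 0.0224). The call was lost when only the 2 groups compared were fitted (adjusted p = 0.0764) and in 4 fits that left out BOM plus anti-PD1 tumor 1 or vehicle tumor 3, 4 or 5 (0.0615 to 0.0627). Irf9 was at 45.6, 24.8, 38.7 and 36.6 CPM against 16.8 to 31.1 CPM in vehicle, which overlap, and was not called (0.62 ± 0.21, adjusted p = 0.0622). Without vehicle tumors 1 and 2, which held the highest vehicle values of Irf9 (31.1 and 27.8 CPM), its difference was 0.93 ± 0.21 (adjusted p = 0.00447). DESeq2 on all tumors gave Irf9 an adjusted p of 0.0261.

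Compared with anti-PD1 alone, BOM plus anti-PD1 raised 3 of the 8 members, Irf1, Irf3 and Irf9, while 15.8% of all genes were called higher. All 8 fitted values were positive, with a median of 0.92 beside -0.01 over all genes. The same 5 anti-PD1 tumors gave the negative values against vehicle, so these patterns are not independent. Several members also vary together across tumors, and the share of all genes with a positive value was not computed. Irf1 stood above all 5 anti-PD1 tumors in 4 of 4 tumors and rose by 1.30 ± 0.22 (2.47-fold, adjusted p = 0.000336), a call kept in all 18 fits that left out a tumor. Irf9 was at 26.5, 15.8, 15.7, 16.2 and 19.0 CPM with anti-PD1, and its range overlapped that of BOM plus anti-PD1 only through BOM plus anti-PD1 tumor 2 and anti-PD1 tumor 1. It rose by 0.94 ± 0.21 (adjusted p = 0.00274), also kept in all 18 fits.

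Irf3 was at 51.3, 59.2, 52.8 and 50.8 CPM against 46.7, 42.4, 45.4, 49.4 and 41.9 CPM, without overlap. The rise was the smallest of the 3, at 0.22 ± 0.07 (1.17-fold, adjusted p = 0.0215), and was lost without BOM plus anti-PD1 tumor 2 (adjusted p = 0.0890) and when only these 2 groups were fitted (0.0504). Irf3 shares 88 exonic bases with the opposite-strand gene Bcl2l12, which fell by 0.42 ± 0.16 (adjusted p = 0.0466).

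The members best known from immune cells were higher on average and more scattered. Irf8 was at 34.4, 12.6, 16.5 and 19.7 CPM with both agents and 20.6, 5.38, 11.96, 3.58 and 6.50 CPM with anti-PD1 (1.09 ± 0.48, adjusted p = 0.0911). Irf7 was at 27.3, 6.58, 14.7 and 10.5 CPM against 16.7, 6.60, 5.81, 2.01 and 3.46 CPM (1.08 ± 0.51, adjusted p = 0.113). For Irf8 the groups overlapped only through anti-PD1 tumor 1, and for Irf7 through anti-PD1 tumors 1 and 2. Without anti-PD1 tumor 1, Irf7 (1.72, adjusted p = 0.0104) and Irf8 (1.59, adjusted p = 0.0155) passed the threshold. Anti-PD1 tumor 1 also had the highest leukocyte sum of its group, 272 CPM against 65.8 to 175 CPM. Irf5 (0.89 ± 0.52), Irf4 (0.84 ± 0.50) and Irf2 (0.14 ± 0.10) were not called.

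**Figure D4:**
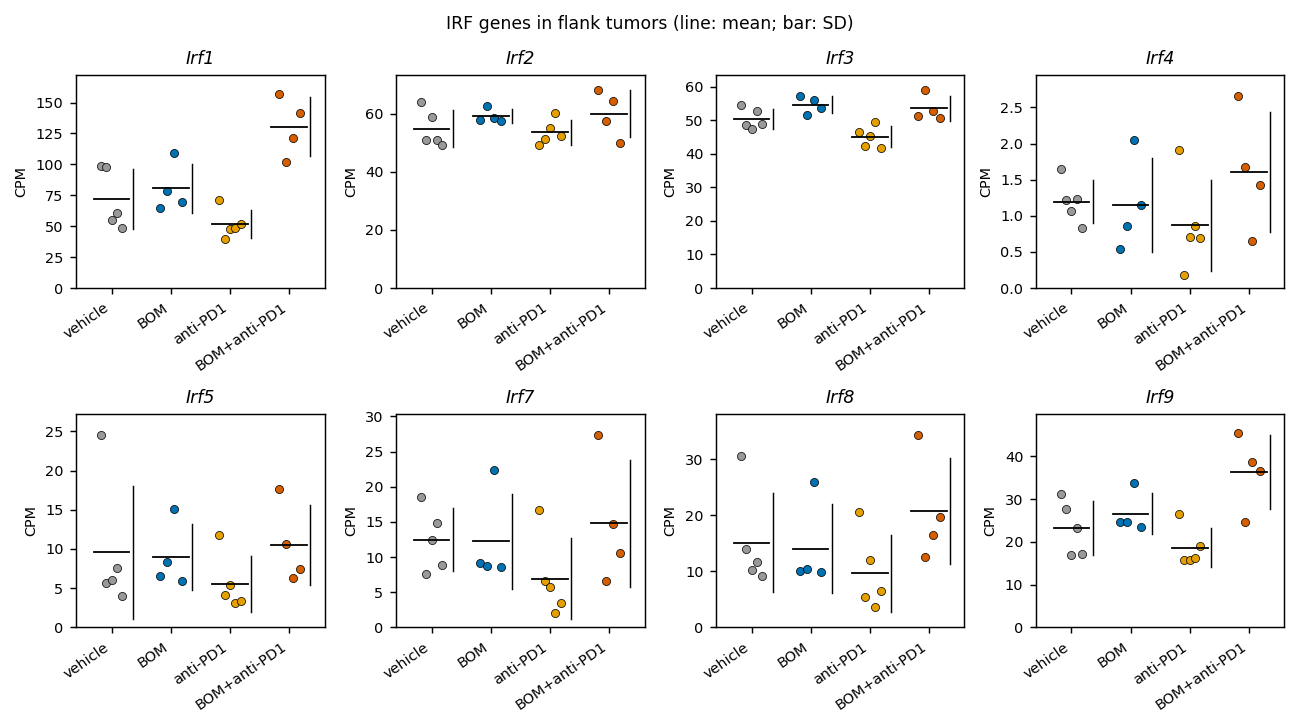
CPM (vertical axes, linear from 0, 1 scale per gene) of the 8 members in 18 tumors; points are tumors, the horizontal line is the mean and the vertical bar the SD. Irf1 in BOM plus anti-PD1 tumors, at 102 to 157 CPM, lay above all anti-PD1 and vehicle tumors, and 1 tumor stands well above the rest of its group for Irf5 in vehicle tumors and for Irf7 and Irf8 in BOM tumors.

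The rise of Irf1 and Irf9 was accompanied by other genes of the pathway, while 15.8% of all genes were called higher. Of 9 IRF1 targets 6 rose against anti-PD1 alone, among them Ciita (2.15 ± 0.43), Gbp2 (2.32 ± 0.64), Tap1 (1.14 ± 0.36) and B2m (0.66 ± 0.21), with a median of 1.18 beside -0.01 over all genes. Of 12 measured ISGF3 targets 5 rose, with a median of 1.18; Usp18 (3.04 ± 0.46) and Xaf1 (1.65 ± 0.25) had the lowest p. Of 9 receptors, JAKs and STATs 4 rose, among them Stat2 (0.48 ± 0.17) and Ifnar1, a chain of the type I interferon receptor (0.41 ± 0.09). Of 15 sensors, adaptors and kinases 6 rose, including Ifih1 (1.03 ± 0.21), Mavs (0.72 ± 0.14) and Tmem173, the DNA-sensing adaptor STING (1.13 ± 0.23). Spi1, which encodes PU.1, was not called (0.40 ± 0.56).

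Marker sums are given beside these changes. T cell markers (9 genes) summed to 16.9 to 38.7 CPM with both agents, 2.58 to 19.5 CPM with anti-PD1 and 4.67 to 29.9 CPM in vehicle tumors, and 3 of 9 were called higher against anti-PD1. Leukocyte markers summed to 152 to 354 CPM with both agents and 65.8 to 272 CPM with anti-PD1, with 0 of 6 called, which overlap, and 1 of 11 macrophage and monocyte markers was called higher, beside 15.8% of all genes. Of 5 measured dendritic markers 1 was called higher. Of 3 measured B and plasma cell markers 0 were called higher and 1 lower, beside 2374 of 14332 genes called lower. Their part in the changes of Irf1 and Irf9 was not tested. The same T cell list summed to 3.21 to 6.78 CPM in DMSO and 3.57 to 4.88 CPM in BOM cultures at 10 d. Counts were found for 7 of its 9 genes (all but Cd3d and Cd3g), and 1 of the 9 passed the filter.

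BOM plus anti-PD1 against BOM alone called 0 members, and 0.00698% of all genes (1 of 14332); DESeq2 and limma voom called 0 members too. Irf1 was higher by 0.70 ± 0.23 and was the 1 member at an unadjusted p under 0.05 (adjusted p = 0.543). The BOM by anti-PD1 interaction called 0 members and 0 of 14332 genes (0% called) in edgeR, with 1258 genes and 2 members, Irf1 and Irf9, at an unadjusted p under 0.05, and DESeq2 and limma voom again called 0 members. The interaction of Irf1 was 1.18 ± 0.31 (adjusted p = 0.394) and that of Irf9 was 0.78 ± 0.30 (adjusted p = 0.492). The comparisons against vehicle share the vehicle tumors, and the comparisons of BOM plus anti-PD1 share its 4 tumors. The anti-PD1 tumors likewise serve in the comparison with vehicle and in that with BOM plus anti-PD1.

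Across the 18 tumors, the members separated by how closely they followed marker genes of immune cells. Each member's log2 CPM was correlated with the mean log2 CPM of the leukocyte, T cell and macrophage lists, 24 relations in all, by a two-sided permutation test with 100000 resamples and Benjamini-Hochberg adjustment over the 24. Of these 19 had an adjusted p under 0.05. The share of all genes that relate to these lists was not computed, so the count is not shown to be particular to the members. Irf5 had r = 0.95 with both leukocytes and macrophages (rho = 0.86 and 0.90; p = 1e-05, the smallest the resampling can give, adjusted p = 4.8e-05), and r = 0.92 and 0.93 without the 2 tumors farthest from the median. Irf8 had r = 0.93 with leukocytes (rho = 0.93, p = 1e-05, adjusted p = 4.8e-05) and 0.90 without the 2 farthest tumors. Irf7 had r = 0.83 with leukocytes (rho = 0.63, p = 5e-05, adjusted p = 0.00015), and 0.78 without those 2.

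Irf9 and Irf1 followed T cell markers more closely than the other lists by value, a difference that was not tested. Irf9 had r = 0.87 (rho = 0.86, p = 1e-05, adjusted p = 4.8e-05) and Irf1 r = 0.83 (rho = 0.82, p = 6e-05, adjusted p = 0.00016), and without the 2 farthest tumors they had 0.84 and 0.79. With group means removed and permutation within groups, r was 0.84 for Irf9 and 0.80 for Irf1 with T cells, 0.94 for Irf5 and 0.93 for Irf8 with leukocytes. Irf4 had r = 0.73 with macrophages (rho = 0.78, p = 0.00066, adjusted p = 0.0014). Irf2 showed no called relation (r from 0.15 to 0.33). Irf3 had 1, with macrophages (r = 0.49, rho = 0.39, p = 0.0377, adjusted p = 0.0477), which no longer held without the 2 farthest tumors (r = 0.28). These tumors share their RNA source and library scale, and the relations describe bulk tissue.

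**Figure D5:**
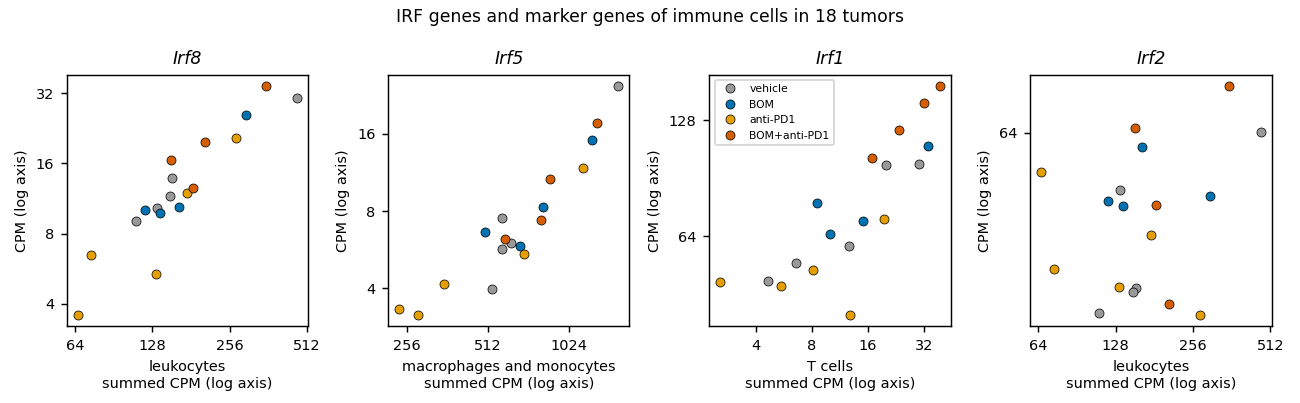
CPM of 4 members (vertical log axes) against the summed CPM of marker genes (horizontal log axes), 1 point per tumor, colored by group. Irf8 and Irf5 rise with leukocyte and macrophage markers (r = 0.93 and 0.95 on mean log2 values), Irf1 with T cell markers (r = 0.83), and Irf2 does not follow leukocyte markers (r = 0.26).

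The genes most like each member in the tumors were found by Pearson r of log2 CPM over 18 tumors after removing group means, with no p-value. For Irf1 they were Psmb10 (r = 0.96), an immunoproteasome subunit, Tapbp (0.93), the peptide-loading factor tapasin, and Psme1 (0.93), a proteasome activator. For Irf9 they were Trim21 (0.94), an antibody receptor of the cytosol, Psmb10 (0.93) and Xaf1 (0.92). For Irf7 they were Ly6a (0.93), Ifit1 (0.92) and Ms4a6b (0.92), which ranked 27, 30 and 22 when vehicle tumors 1 and 2 were left out. Without those tumors Psmb10 stayed first for Irf1 (0.95), while Tapbp ranked 9.

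For Irf8 the nearest genes were Arhgap45 (r = 0.96), Tmem106a (0.95) and Fcgr1 (0.94), the high-affinity receptor for IgG on myeloid cells and a member of the macrophage list. For Irf5 they were C1qa (0.95), a complement gene in the same list, Myo1f (0.95) and Tnfaip8 (0.95), which ranked 20, 9 and 6 without vehicle tumors 1 and 2, at r = 0.93 to 0.95. Arhgap45 and Tmem106a kept ranks 1 and 2 for Irf8 in that setting. Irf2 (Zfp65, 0.81), Irf3 (Ndufaf8, 0.78) and Irf4 (Abracl, 0.87) had lower best values.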

How the data were processed

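The authors deposited raw counts per gene in 3 tables, and per the submitters' processing notes the tools were bcl2fastq, STAR 2.7, FastQC 0.11.9, featureCounts and Subread 2.0 with the genome build mm10. Settings are not given in the sources used here. The labels give polyadenylated RNA for tumors and 96 h cultures and total RNA for those of 10 d, with a kit that does not mark the strand, so that counts of overlapping genes are uncertain. Gene lengths in the tables equal the exon unions of GENCODE mouse release M21 for all 8 members, and overlaps were taken from that annotation.

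Each table was fitted alone with edgeR 4.0.16 in R 4.3.3 (filterByExpr, TMM, quasi-likelihood F-test, Benjamini-Hochberg over all genes tested: 13333, 15230 and 14332), with cell line as a block at 96 h. Biological coefficients of variation were 0.169, 0.104 and 0.181. Log2 CPM used a prior count of 2. Simulated data had the depth and the common spread of 3 comparisons, and the genes changed had an average log2 CPM of at least 2. Every simulated gene had the same spread, and no differences between lines were simulated. The 96 h rate therefore does not carry over to the real lines. Of 100 genes changed 2-fold 86 were found at 96 h, 97 for BOM with IFNg at 10 d and 95 for BOM plus anti-PD1 against anti-PD1. Of genes changed 4-fold 100 of 100 were found in each, with 5, 6 and 8 false calls. These rates do not apply to members at lower levels, such as Irf4. Nor do they apply where the spread was larger, as for Irf5, Irf7 and Irf8 against anti-PD1 (SE 0.52, 0.51 and 0.48). In the real 96 h fit Irf7 had an SE of 0.48, and Ciita differed by 0.90 ± 0.28 without being called (adjusted p = 0.589).

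The members and lists were chosen with earlier results of these data known. All members are named. Of each pathway list, the 3 genes with the lowest p in a comparison and Stat2, Tap1, Ciita, Ifit1, Usp18 and Spi1 could be named; not all are printed, and 1 gene that the rule names is not reported here. Nearest genes were the 3 with the highest r and a mean log2 CPM of at least 2, without predicted genes. Same-numbered libraries without and with IFNg in DMSO had residuals correlated by 0.119 to 0.393, above 0.1 in 3 of 3 pairs, so these were treated as pairs in an alternative, although the best match had the same number in 2 of 3. Within groups, libraries differed by more than counting noise (chi-square over its degrees of freedom at least 2.55). Alternatives were DESeq2 1.42.0, limma 3.58.1 voom with sample weights, RLE, library size alone, no filter, 1 CPM, only the groups compared, the replicate block, no vehicle tumors 1 and 2, and each library left out.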

Additional observations from a re-analysis of the deposited data

Results flagged for a closer look

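In 7 of 32 combinations of member and tumor group, 1 tumor stood apart from the rest of its group by Dixon's test at 95%. Chance would flag about 1 in 20 independent groups. The 32 combinations share tumors, and several members rise and fall together. The 7 flags can therefore not be set against that rate, and the rate over all genes was not computed. BOM tumor 3 was the highest of its group for Irf7 (22.3 CPM), Irf8 (25.9 CPM) and Irf9 (33.8 CPM), and it also had the highest leukocyte sum among BOM tumors, 297 CPM against 120 to 163 CPM. Vehicle tumor 1, the deepest library, was the highest for Irf5 (24.5 CPM) and Irf8 (30.6 CPM), beside a leukocyte sum of 469 CPM. Anti-PD1 tumor 1 was the highest for Irf5 (11.7 CPM), with a macrophage sum of 1156 CPM. The part of these marker levels in the values was not tested. BOM tumor 2 was the highest for Irf2 (62.7 CPM) and held 1052 CPM of skeletal muscle markers.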

How the results depend on the processing

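Of the alternative fits of single members, 1929 kept the side of the threshold, 15 passed it anew and 29 lost it. No call reversed, and in 60 the sign differed while neither value was called. Counts of called members moved by over 1.5 times in these cases. The 10 d interaction went from 0 to 1 with DESeq2, 2 with no filter and 1 with the replicate block, the paired fit. BOM against vehicle went from 0 to 1 without vehicle tumors 1 and 2. BOM plus anti-PD1 against vehicle went from 1 to 2 with DESeq2 and without those tumors, and to 0 with only the 2 groups fitted. With 1 library left out, the count for BOM at 10 d ranged from 0 to 1, for BOM with IFNg from 1 to 4, for BOM plus anti-PD1 against vehicle from 0 to 2 and against anti-PD1 from 2 to 5; where a culture group then held 1 library, it was assumed to vary like the others. Smaller moves were seen too: IFNg in DMSO went from 5 to 4 with only the 2 groups fitted and in 7 of 10 fits that left out a library, IFNg in BOM from 5 to 4 in 2 of 10 such fits, BOM with IFNg from 4 to 3 with DESeq2, no filter and the block, and BOM plus anti-PD1 against anti-PD1 from 3 to 4 with voom and 2 with only the 2 groups. The causes were not tested. Calls over all genes at 10 d fell from 3094 to 1858 for BOM without BOM culture 1, from 3518 to 2095 for BOM with IFNg without culture 2 of that group, and from 314 to 178 for IFNg in BOM without BOM culture 2 (207 without BOM culture 1, 208 without culture 2 of BOM with IFNg); with no filter IFNg called 548 genes in DMSO and 506 in BOM against 345 and 314. In the tumors replicate numbers share only a number: residuals correlated from -0.36 to 0.51, and the block gave Irf3 an adjusted p of 0.0582 and Irf8 0.0452 against anti-PD1. At 10 d the block gave Irf9 0.0598 for BOM with IFNg. Library size alone moved the split of all genes called for BOM at 10 d from 1837 higher and 1257 lower to 2208 and 909, and with IFNg from 1979 and 1539 to 2287 and 1072; it changed no member's call. Of 72 alternative relations 7 lost the threshold. Levels below about 1 CPM rest on few counts.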
